A study of Mus musculus with 32 samples.

Results

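The liver is a main site at which circulating androgens, estrogens and glucocorticoids are activated, inactivated and cleared. The 10 genes described here are 9 enzymes of steroid hormone metabolism (Hsd3b2, Hsd3b3, Hsd3b5, Cyp17a1, Hsd17b2, Hsd17b6, Srd5a1, Akr1c6 and Hsd11b1) and the glucocorticoid receptor Nr3c1. They were taken by gene symbol from the raw count tables of a mouse liver RNA sequencing study, in which they are 10 of 41585 gene entries. The choice used no measured value of a comparison, but it was made with earlier results of these data known.

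Wild-type (WT) C57BL/6 mice (C57BL/6J in the study's methods) and mice of the same background that lack the 3 genes Cyp2b9, Cyp2b10 and Cyp2b13 (Cyp2b-null, a germline deletion made by CRISPR/Cas9) were 10 weeks old when feeding began. They received normal chow (ND) or a choline-deficient, amino acid-defined diet with 62% fat and 0.1% methionine (CDAHFD), which produces steatohepatitis, for 8 weeks. Males and females of both genotypes were fed each diet, which gives 8 groups of 4 liver libraries, 32 in all. Males and females were deposited in separate tables of 16 libraries, so that sex and any difference between the tables cannot be told apart. The WT mice were bought from a breeder, and the Cyp2b-null mice came from the study's own line.

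Library totals ranged from 2906411 to 10166959 counts. Levels are given as CPM, the usual count unit scaled to library size, after TMM scaling of all 32 libraries together, and 3 counts corresponded to 0.250 to 1.15 CPM depending on the library. The labels were checked first. Female WT libraries held 683 to 3530 counts of Cyp2b9 and 470 to 2351 of Cyp2b13, whereas female null libraries held 2 to 8 and 0 to 1. In ND-fed males Cyp2b9 was low whatever the genotype (WT mice had 0 to 15 counts, null mice 4 to 18), and there Cyp2b10 separated the genotypes with 33 to 97 against 1 to 9 counts. In CDAHFD-fed males Cyp2b9 reached 118 to 364 counts when the gene was intact and 2 to 7 when it was deleted. Xist gave 798 to 4033 counts in females and 0 to 15 in males, and the Y-linked Ddx3y 0 to 1 and 262 to 913. The hepatocyte markers were present in every library, with Alb (albumin) the most abundant. Each library is a separate liver sample of its group, and bulk libraries cannot tell fewer cells of a type from less RNA per cell.

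As background, the members act at successive places of one network. 3β-hydroxysteroid dehydrogenases and Cyp17a1 shape the precursors. Hydroxysteroid 17β-dehydrogenases switch androgens and estrogens between potent and weak forms, and Srd5a1 reduces testosterone to the stronger androgen dihydrotestosterone and also starts glucocorticoid breakdown. Hsd11b1 regenerates active corticosterone inside the hepatocyte, where it acts through Nr3c1. Several of these genes are known to differ between male and female mouse liver, where the male pattern follows the pulses of growth hormone.

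CDAHFD lowered 8 of the 10 members and raised 1 in males of each genotype, and lowered 3 in females of each genotype. Changes were called at an adjusted p under 0.05 in edgeR's quasi-likelihood test, with Benjamini-Hochberg adjustment over all genes that passed a low-count filter (13226 in females and 13460 in males). All 10 members passed it in males. In females 9 passed, and Hsd3b5 did not. In WT males 8 members were called lower, against 15% of all genes tested, and 1 was called higher, against 18% of all genes. In Cyp2b-null males the same counts stood against 17.1% and 20.3%. In WT females 3 of the 9 tested members were called lower, against 10.2% of all genes, and in Cyp2b-null females 3 against 13.9%. No member was called higher in females, where 13.9% of genes in WT and 16.9% in Cyp2b-null mice were. The lowered genes in females of both genotypes were Cyp17a1, Hsd11b1 and Nr3c1, which were also among the 8 lowered in males of both genotypes. The 5 genes called lower in males and not in females were Hsd3b5, Hsd3b2, Hsd3b3, Srd5a1 and Hsd17b2, and the gene that rose in males was Hsd17b6. Akr1c6 was not called in any diet comparison. The calls of Nr3c1 in WT females and Cyp17a1 in Cyp2b-null males were lost in most fits with a single library left out. With scaling by library size alone, Hsd3b3, Hsd17b2 and Nr3c1 were not called in males of either genotype. Neither were Nr3c1 in WT females and Cyp17a1 in Cyp2b-null males.

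**Figure D1:**
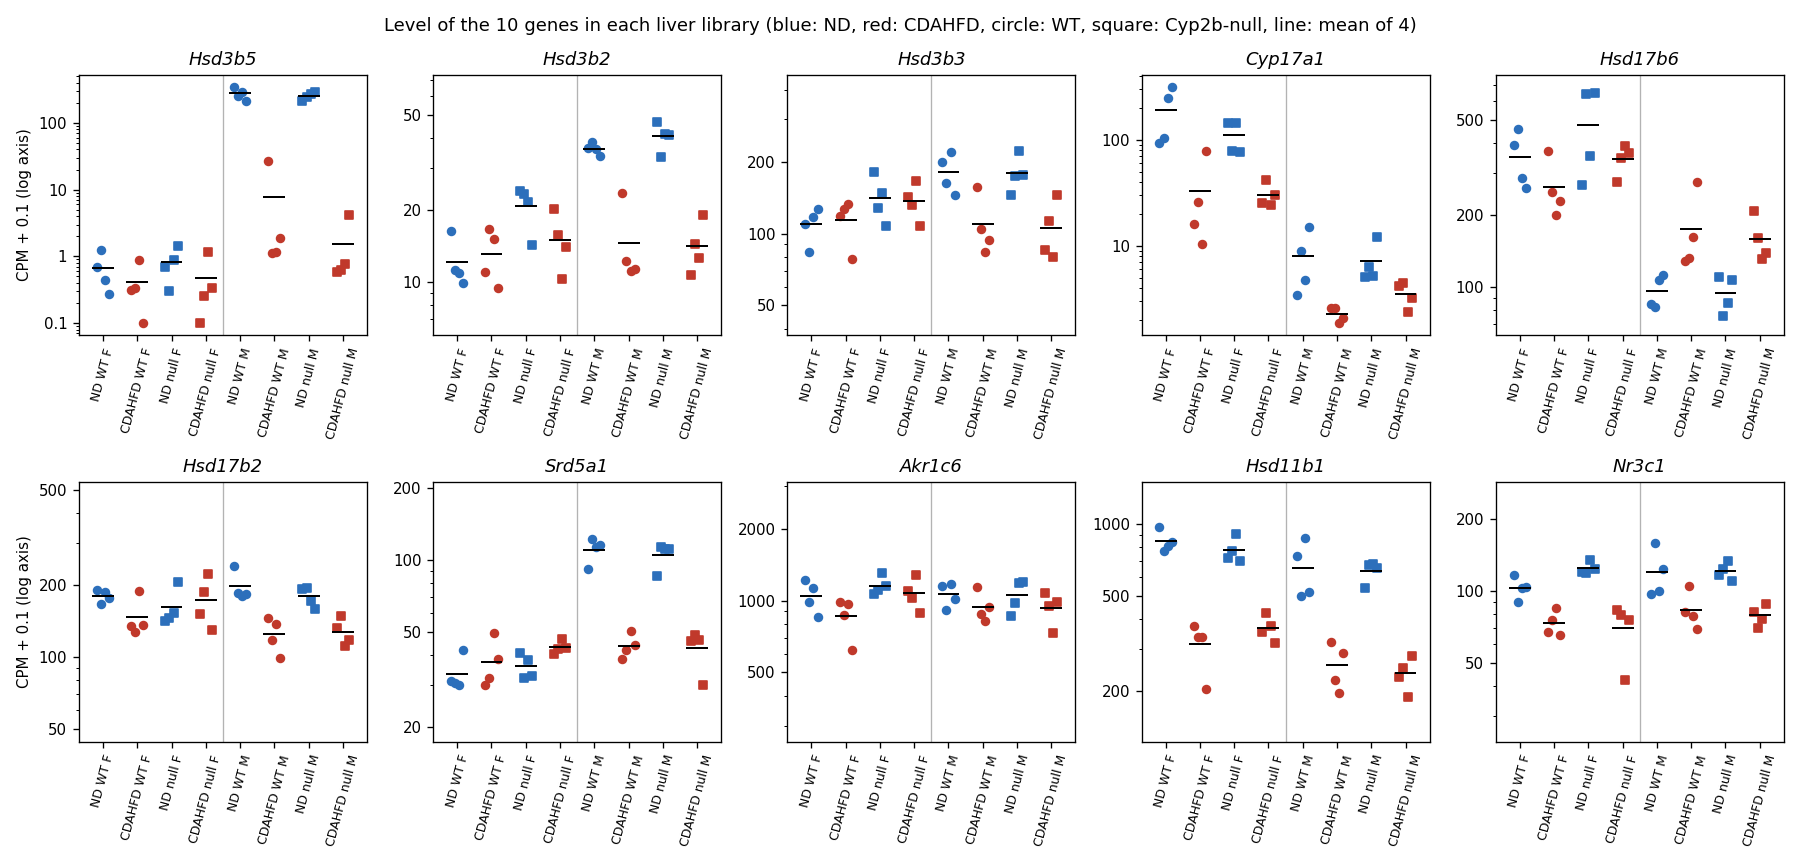
Level of each of the 10 genes in every library, as CPM plus 0.1 on a log axis that differs between panels, with the 4 female groups left and the 4 male groups right of the grey line. Blue marks ND, red CDAHFD, circles WT, squares Cyp2b-null mice, and the black line is the mean of 4 libraries. Hsd3b5 lies above 200 CPM in ND-fed males only, Cyp17a1 is highest in ND-fed females, and Akr1c6 lies at a like level in all 8 groups.

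The 3β-hydroxysteroid dehydrogenase genes lie side by side on chromosome 3 on the minus strand (GRCm38.p6, RefSeq), Hsd3b5 at chr3:98618636-98645534, Hsd3b2 at chr3:98711107-98724543 and Hsd3b3 at chr3:98741476-98764540. Hsd3b5 is known as a 3-ketosteroid reductase of male mouse liver, whereas Hsd3b2 and Hsd3b3 belong to the branch with dehydrogenase and isomerase activity. The coding sequences of Hsd3b2 and Hsd3b3 are 95.1% identical and share 79 windows of 150 bases, the length of a read, so reads may have been split between them. Hsd3b5 is 81.3% identical to Hsd3b2 and 81.4% to Hsd3b3 with no shared window. Its closest copy is Hsd3b4, at 95.2% with 17 shared windows, and Hsd3b4 itself had at most 0.327 CPM as a group mean.

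The promoters of these 3 genes are shown because the levels of these neighboring copies by sex and diet are described next. Each window runs from 250 bases before to 50 bases after the RefSeq transcription start (GRCm38.p6, minus strand, written 5′ to 3′): chr3:98645485-98645784 for Hsd3b5, chr3:98763079-98763378 for Hsd3b3 and chr3:98724494-98724793 for Hsd3b2. Capitals mark exact runs of at least 12 bases that a window shares with either of the other windows.
Hsd3b5: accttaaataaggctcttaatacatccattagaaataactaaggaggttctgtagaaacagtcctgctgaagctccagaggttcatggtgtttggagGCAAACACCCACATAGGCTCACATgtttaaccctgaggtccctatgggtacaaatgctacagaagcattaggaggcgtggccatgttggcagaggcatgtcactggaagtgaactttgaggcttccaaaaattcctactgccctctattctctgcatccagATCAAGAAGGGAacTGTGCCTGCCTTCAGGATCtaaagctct
Hsd3b3: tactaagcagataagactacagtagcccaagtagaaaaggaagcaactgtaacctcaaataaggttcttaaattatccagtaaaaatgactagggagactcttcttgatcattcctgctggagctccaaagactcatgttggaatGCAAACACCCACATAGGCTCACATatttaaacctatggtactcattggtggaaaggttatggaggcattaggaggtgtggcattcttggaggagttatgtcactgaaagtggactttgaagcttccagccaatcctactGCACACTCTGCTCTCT
Hsd3b2: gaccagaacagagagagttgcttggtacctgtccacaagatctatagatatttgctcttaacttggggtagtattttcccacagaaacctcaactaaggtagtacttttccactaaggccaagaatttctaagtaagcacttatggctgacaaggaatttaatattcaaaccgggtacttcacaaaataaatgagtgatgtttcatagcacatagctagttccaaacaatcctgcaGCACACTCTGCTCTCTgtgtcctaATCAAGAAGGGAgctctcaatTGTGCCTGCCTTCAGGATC
The Hsd3b5 and Hsd3b3 windows were 76.3% identical over 249 aligned bases and shared a run of 24 bases, GCAAACACCCACATAGGCTCACAT. Hsd3b2 was 69.0% identical to Hsd3b5 and 63.6% to Hsd3b3. Both strands of the 9 windows on hand, from 7 members, were searched for 3 motifs. The full glucocorticoid response element (AGAACA, any 3 bases, then its reverse complement), found in 0.00913% of 32851 RefSeq promoter windows of this length, was in none, and neither was the STAT motif TTCNNNGAA, found in 8.3%. AGAACA, which lies inside the longer element and occurs in 19% of windows, was found once, 246 to 241 bases before the start of Hsd3b2. A match or its absence describes these letters only.

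Hsd3b5 was close to a male-only transcript, and CDAHFD nearly removed it. ND-fed WT males had 349, 255, 290.05 and 216 CPM, and ND-fed Cyp2b-null males had 211, 247, 269 and 291 CPM. CDAHFD-fed WT males had 27.1, 1.04, 1.05 and 1.77 CPM, and CDAHFD-fed Cyp2b-null males had 0.483, 0.521, 0.666 and 4.10 CPM. Every CDAHFD-fed male library lay below every ND-fed one, and 1 library of each CDAHFD-fed male group (WT replicate 1 and Cyp2b-null replicate 4) stood well above the other three of its group. The CDAHFD-fed mean was 2.79% of the ND-fed mean in WT males and 0.567% in Cyp2b-null males. For WT males the log2 fold change was -5.23 (SE 0.62, adjusted p = 1.57e-06). For Cyp2b-null males it was -7.76 (SE 0.76, adjusted p = 8.71e-08). Without WT replicate 1 the other three CDAHFD-fed WT males averaged 1.29 ± 0.421 CPM (SD, n = 3), and the WT change was -7.73. Without Cyp2b-null replicate 4 the Cyp2b-null change was -8.75.

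In females Hsd3b5 had at most 8 counts in each of the 16 libraries. The counts were 3, 3, 1 and 1 in ND-fed WT females, 1, 1, 4 and 0 in CDAHFD-fed WT females, 2, 1, 2 and 8 in ND-fed Cyp2b-null females and 0, 1, 6 and 2 in CDAHFD-fed Cyp2b-null females. A diet change in females was not detectable at this depth, with adjusted p = 0.712 in WT and 0.486 in Cyp2b-null mice in the edgeR fit without the low-count filter. The ND-fed WT males held 6540 counts of Hsd3b5 in all and the ND-fed WT females 8, a ratio of scaled levels of 575 (counting interval 292 to 1330), and the fitted sex difference was 9.08 (SE 0.77, adjusted p = 1.01e-10). That difference was 8.34 (SE 0.73, adjusted p = 2.19e-10) in ND-fed Cyp2b-null mice, 4.54 (SE 1.03, adjusted p = 0.00495) in CDAHFD-fed WT mice and 1.57 (SE 1.26, adjusted p = 0.402) in CDAHFD-fed Cyp2b-null mice. The call in CDAHFD-fed WT mice rested on WT male replicate 1, and without it adjusted p was 0.129 (log2 1.998). The estimate there was 5.59 without CDAHFD-fed WT female replicate 3, and that in ND-fed Cyp2b-null mice 9.05 without female replicate 4. That in CDAHFD-fed Cyp2b-null mice was called without the low-count filter (1.58, adjusted p = 0.0191). Of the males in that comparison, replicate 4 had 4.10 CPM and the others 0.483 to 0.666 CPM. Over all 10 members, a sex difference was called for 6 in ND-fed WT mice (17.8% of all genes), 5 in ND-fed Cyp2b-null mice (13.3%), 2 in CDAHFD-fed WT mice (11%) and 4 in CDAHFD-fed Cyp2b-null mice (18.1%).

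Hsd3b2 was a low-level gene that shared the male bias on ND. On ND, WT males had 36.2, 38.2, 35.9 and 33.5 CPM and CDAHFD-fed WT males 23.5, 12.1, 10.99 and 11.2 CPM. ND-fed Cyp2b-null males had 46.5, 33.3, 41.3 and 41.2 CPM and CDAHFD-fed Cyp2b-null males 10.6, 14.3, 12.5 and 18.9 CPM. The diet groups did not overlap in either male genotype, and replicate 1 was again the highest CDAHFD-fed WT male. The fall on the log2 scale was -1.33 (SE 0.21, adjusted p = 4.42e-05) for WT males. For Cyp2b-null males it was -1.54 (SE 0.21, adjusted p = 4.64e-06). ND-fed WT females had 16.3, 11.1, 10.8 and 9.82 CPM, CDAHFD-fed WT females 10.9, 16.5, 14.9 and 9.37 CPM, ND-fed Cyp2b-null females 23.9, 23.2, 21.5 and 14.2 CPM and CDAHFD-fed Cyp2b-null females 20.1, 15.5, 10.2 and 13.9 CPM. These female groups overlapped between diets, and the change was not called in WT (log2 0.11, SE 0.25, adjusted p = 0.791) or Cyp2b-null females (log2 -0.44, SE 0.23, adjusted p = 0.151). On ND, males were higher by 1.57 (SE 0.23, adjusted p = 1.14e-05) in WT and 0.99 (SE 0.22, adjusted p = 0.00256) in Cyp2b-null mice on the log2 scale. On CDAHFD the sex difference was not called, at 0.16 in WT and -0.08 in Cyp2b-null mice.

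Hsd3b3 was the more abundant of the near-identical pair per kilobase of exon. ND-fed WT males had 199, 163, 219 and 144 CPM and CDAHFD-fed WT males 157, 105, 83.2 and 93.9 CPM. On ND, Cyp2b-null males had 144, 174, 221 and 176 CPM and CDAHFD-fed Cyp2b-null males 85.01, 113, 79.4 and 145 CPM. The diet groups overlapped narrowly in both genotypes through the highest CDAHFD-fed library, which was WT replicate 1 and Cyp2b-null replicate 4. The fall was called in WT males (log2 -0.73, SE 0.20, adjusted p = 0.00866) and Cyp2b-null males (log2 -0.76, SE 0.20, adjusted p = 0.00519), and in neither with scaling by library size alone (adjusted p = 0.106 and 0.0626). In females the means were 109 ± 18.4 CPM (SD, n = 4, as in all means below) on ND and 114 ± 24.4 CPM on CDAHFD in WT mice, and 141 ± 31.1 and 137 ± 24.4 CPM in Cyp2b-null mice. These female values overlapped, and neither change was called (log2 0.08 and -0.01, adjusted p = 0.797 and 0.967). The male bias on ND was called in WT mice (log2 0.73, SE 0.21, adjusted p = 0.0134), a call lost without ND-fed WT female replicate 2 (adjusted p = 0.0516), and was not called in Cyp2b-null mice (log2 0.35, SE 0.21, adjusted p = 0.281).

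Cyp17a1, whose product has the 17α-hydroxylase and lyase activities that open the way to androgens, was female-biased and fell on CDAHFD in all 4 combinations of sex and genotype. It lies at chr19:46667165-46673000 on the minus strand. ND-fed WT females had 92.8, 103, 248 and 319 CPM and CDAHFD-fed WT females 15.98, 25.97, 10.4 and 78.3 CPM. ND-fed Cyp2b-null females had 145, 78.5, 146 and 77.3 CPM and CDAHFD-fed Cyp2b-null females 25.4, 41.6, 23.9 and 30.04 CPM. The diets did not overlap in either genotype although ND-fed WT females spread widely. The log2 change was -2.50 (SE 0.48, adjusted p = 0.000526) in WT and -1.84 (SE 0.47, adjusted p = 0.00559) in Cyp2b-null females. Without CDAHFD-fed replicate 4, the highest of its group, the WT change was -3.44 (adjusted p = 1.04e-05). Males were far lower on each diet. On ND, WT males had 3.31, 8.77, 4.66 and 14.9 CPM and CDAHFD-fed WT males 2.47, 2.50, 1.75 and 1.95 CPM, and the diet effect was -1.85 (SE 0.42, adjusted p = 0.00184). ND-fed Cyp2b-null males had 5.002, 6.15, 5.06 and 11.96 CPM and CDAHFD-fed Cyp2b-null males 4.03, 4.37, 2.25 and 3.08 CPM, and the effect was -1.02 (SE 0.39, adjusted p = 0.0465). The male groups did not overlap between diets either, at 11 to 68 counts a library in all. The call in Cyp2b-null males was lost without 1 library in 5 of 8 cases: adjusted p was 0.0571, 0.147 and 0.0837 without CDAHFD-fed replicates 1, 3 and 4, and 0.0603 and 0.226 without ND-fed replicates 2 and 4. It was also lost with scaling by library size alone (0.177). The sex difference, males minus females, was -4.64 (SE 0.49, adjusted p = 1.39e-08) in ND-fed WT, -4.01 (SE 0.49, adjusted p = 3.3e-07) in ND-fed Cyp2b-null, -3.96 (SE 0.57, adjusted p = 2.72e-05) in CDAHFD-fed WT and -3.16 (SE 0.51, adjusted p = 0.000112) in CDAHFD-fed Cyp2b-null mice. The CDAHFD-fed WT value was -3.01 without female replicate 4.

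The 17β-hydroxysteroid dehydrogenases went separate ways. Hsd17b6 (chr10:127990931-128007648, minus strand), known for turning weak androgen metabolites back toward dihydrotestosterone, was the only member that rose, and it did so in males. ND-fed WT males had 84.6, 82.2, 106 and 112 CPM and CDAHFD-fed WT males 128, 132, 162 and 274 CPM. On ND, Cyp2b-null males had 110.2, 75.2, 85.6 and 106 CPM and CDAHFD-fed Cyp2b-null males 206, 159.8, 131 and 138 CPM. Every CDAHFD-fed male exceeded every ND-fed male of its genotype, with WT replicate 4 the highest, and the log2 change was 0.86 (SE 0.21, adjusted p = 0.00293) in WT and 0.75 (SE 0.21, adjusted p = 0.0068) in Cyp2b-null males. ND-fed WT females had 391, 456, 286 and 259.6 CPM, CDAHFD-fed WT females 370.1, 249, 199 and 228 CPM, ND-fed Cyp2b-null females 266, 639.9, 353 and 643 CPM and CDAHFD-fed Cyp2b-null females 273, 346, 388 and 364 CPM. The female diet groups overlapped and the female changes, -0.39 (SE 0.25, adjusted p = 0.288) in WT and -0.45 (SE 0.25, adjusted p = 0.183) in Cyp2b-null mice, were not called. The Cyp2b-null change was called without the low-count filter (log2 -0.51, adjusted p = 0.0138) and without ND-fed replicate 1 (-0.65, 0.0446). Females were higher on ND in both genotypes, with males minus females at -1.85 (SE 0.26, adjusted p = 2.67e-06) and -2.33 (SE 0.26, adjusted p = 4.48e-08). On CDAHFD the difference was -0.59 (SE 0.25, adjusted p = 0.122) in WT and -1.11 (SE 0.25, adjusted p = 0.00244) in Cyp2b-null mice. The WT difference was called without the low-count filter (-0.58, adjusted p = 0.00565) and without WT male replicate 4 (-0.89, 0.0203).

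Hsd17b2 (chr8:117700982-117759030, plus strand), which inactivates estradiol and testosterone, fell modestly in males. On ND, WT males had 241, 185, 179.6 and 183 CPM and CDAHFD-fed WT males 145, 117, 137 and 98.9 CPM, without overlap, and the log2 change was -0.66 (SE 0.14, adjusted p = 0.000791). In Cyp2b-null males the means were 179 ± 17.3 CPM on ND and 127 ± 16.6 CPM on CDAHFD, and the change was -0.49 (SE 0.14, adjusted p = 0.00706). With scaling by library size alone neither male change was called (adjusted p = 0.115 in WT and 0.483 in Cyp2b-null mice). The gene overlaps the noncoding Gm31774, and reads of the pair cannot be told apart without strand. In females the means were 179.8 ± 10.7 and 146 ± 28.7 CPM in WT mice and 161 ± 30.2 and 172 ± 40.5 CPM in Cyp2b-null mice, on ND and CDAHFD in turn. Neither female change was called (log2 -0.27, SE 0.17, adjusted p = 0.264 and log2 0.11, SE 0.17, adjusted p = 0.64). The lower level in CDAHFD-fed Cyp2b-null males than females (log2 -0.44, SE 0.16, adjusted p = 0.0491) came from overlapping groups. That call was lost without CDAHFD-fed Cyp2b-null female replicates 2 (adjusted p = 0.109) or 3 (0.254) or male replicates 1 (0.077), 3 (0.146) or 4 (0.121). It was also lost under 6 other settings: the replicate block (0.0561), a minimum of 1 CPM (0.055), no low-count filter (0.0554), scaling by library size alone (0.067), only the groups compared (0.0976) and without the 2 libraries absent from the heat maps (0.397).

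Srd5a1, the steroid 5α-reductase (chr13:69573449-69611485, minus strand), had a male bias on ND that CDAHFD narrowed. ND-fed WT males had 91.4, 123, 113 and 115 CPM and CDAHFD-fed WT males 38.5, 42.1, 50.4 and 43.8 CPM. ND-fed Cyp2b-null males had 85.7, 114, 111 and 111 CPM and CDAHFD-fed Cyp2b-null males 45.7, 48.3, 46.1 and 29.9 CPM. The groups were far apart in both genotypes, and the log2 change was -1.33 (SE 0.15, adjusted p = 5.75e-07) and -1.29 (SE 0.15, adjusted p = 5.99e-07). ND-fed WT females had 31.01, 30.6, 29.97 and 41.7 CPM, CDAHFD-fed WT females 29.98, 32.1, 49.2 and 38.6 CPM, ND-fed Cyp2b-null females 40.8, 31.9, 38.02 and 32.6 CPM and CDAHFD-fed Cyp2b-null females 40.5, 42.4, 46.8 and 42.7 CPM. The female values lay on the level of the CDAHFD-fed males, and their changes were not called (log2 0.19, SE 0.16, adjusted p = 0.437 in WT and log2 0.30, SE 0.16, adjusted p = 0.159 in Cyp2b-null mice). With scaling by library size alone both were called (0.51, adjusted p = 0.0194, and 0.55, adjusted p = 0.0106). Males exceeded females on ND by 1.72 (SE 0.16, adjusted p = 5.14e-10) in WT and 1.56 (SE 0.16, adjusted p = 5.85e-09) in Cyp2b-null mice. On CDAHFD the differences were 0.22 (SE 0.15, adjusted p = 0.377) and -0.01 (SE 0.15, adjusted p = 0.967).

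Akr1c6 (chr13:4434311-4457530, plus strand), an aldo-keto reductase with 17β-hydroxysteroid dehydrogenase activity in liver, varied little. Its group means ran from 859 ± 167 CPM in CDAHFD-fed WT females to 1155 ± 103 CPM in ND-fed Cyp2b-null females. The diet groups overlapped, and the diet changes were -0.26 (SE 0.16, adjusted p = 0.249) in WT females, -0.09 (SE 0.16, adjusted p = 0.707) in Cyp2b-null females, -0.17 (SE 0.15, adjusted p = 0.41) in WT males and -0.17 (SE 0.15, adjusted p = 0.394) in Cyp2b-null males. Its coding sequence is 92.3% identical to that of Akr1c20 and shares no 150-base window with it.

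Hsd11b1 (chr1:193221640-193264045, minus strand) fell in all 4 diet comparisons. ND-fed WT females had 978, 775, 809 and 839.9 CPM and CDAHFD-fed WT females 377, 338, 337 and 205 CPM. ND-fed Cyp2b-null females had 722, 769, 914 and 700.5 CPM and CDAHFD-fed Cyp2b-null females 355, 427, 376 and 318 CPM. The diets were separated by a wide gap in both. The log2 change was -1.41 (SE 0.16, adjusted p = 2.36e-06) in WT and -1.05 (SE 0.16, adjusted p = 5.73e-05) in Cyp2b-null females. On ND, WT males had 736, 499, 879 and 522 CPM and CDAHFD-fed WT males 322, 223, 197 and 289 CPM. On ND, Cyp2b-null males had 542, 678, 681 and 657 CPM and CDAHFD-fed Cyp2b-null males 229.6, 250.2, 189.5 and 281 CPM. No CDAHFD-fed male reached an ND-fed one, and the change was -1.35 (SE 0.18, adjusted p = 8.4e-06) in WT and -1.43 (SE 0.19, adjusted p = 3.45e-06) in Cyp2b-null males. The CDAHFD-fed mean was thus 37.0% of the ND-fed mean in WT females, 47.5% in Cyp2b-null females, 39.1% in WT males and 37.2% in Cyp2b-null males. With all libraries a sex difference was called in CDAHFD-fed Cyp2b-null mice (log2 -0.64, SE 0.18, adjusted p = 0.0135), and it was lost without male replicate 3 (adjusted p = 0.0607). That in ND-fed WT mice (log2 -0.37, SE 0.18, adjusted p = 0.152) was called without male replicate 3 (-0.54, 0.0387).

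Nr3c1, the receptor that binds the corticosterone made by Hsd11b1, also fell, by smaller estimates. ND-fed WT females had 116, 89.5, 102 and 104 CPM and CDAHFD-fed WT females 67.2, 75.3, 84.9 and 65.1 CPM, without overlap. ND-fed Cyp2b-null females had 120.1, 119, 134 and 124 CPM and CDAHFD-fed Cyp2b-null females 82.8, 79.001, 42.1 and 75.4 CPM, where replicate 3 was the lowest of all 32 libraries. The log2 change was -0.47 (SE 0.17, adjusted p = 0.0465) in WT and -0.80 (SE 0.17, adjusted p = 0.00112) in Cyp2b-null females. ND-fed WT males had 96.7, 159, 99.3 and 124 CPM and CDAHFD-fed WT males 81.2, 105, 78.1 and 69.05 CPM, which overlapped, and the change was -0.52 (SE 0.15, adjusted p = 0.0113). ND-fed Cyp2b-null males had 116, 123, 133 and 110.1 CPM and CDAHFD-fed Cyp2b-null males 81.5, 69.6, 75.8 and 88.4 CPM, which did not overlap, and the change was -0.61 (SE 0.15, adjusted p = 0.00283). The WT female call was lost without any 1 of 6 libraries, at adjusted p = 0.108, 0.0755 and 0.128 without CDAHFD-fed replicates 1, 2 and 4 and 0.137, 0.0733 and 0.0831 without ND-fed replicates 1, 3 and 4, and at 0.0692 in the fit with replicate number as a block. The WT male call was lost without ND-fed replicate 2 (0.0606). With scaling by library size alone Nr3c1 was called in Cyp2b-null females only, with adjusted p = 0.558 in WT females, 0.484 in WT males and 0.155 in Cyp2b-null males.

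**Figure D2:**
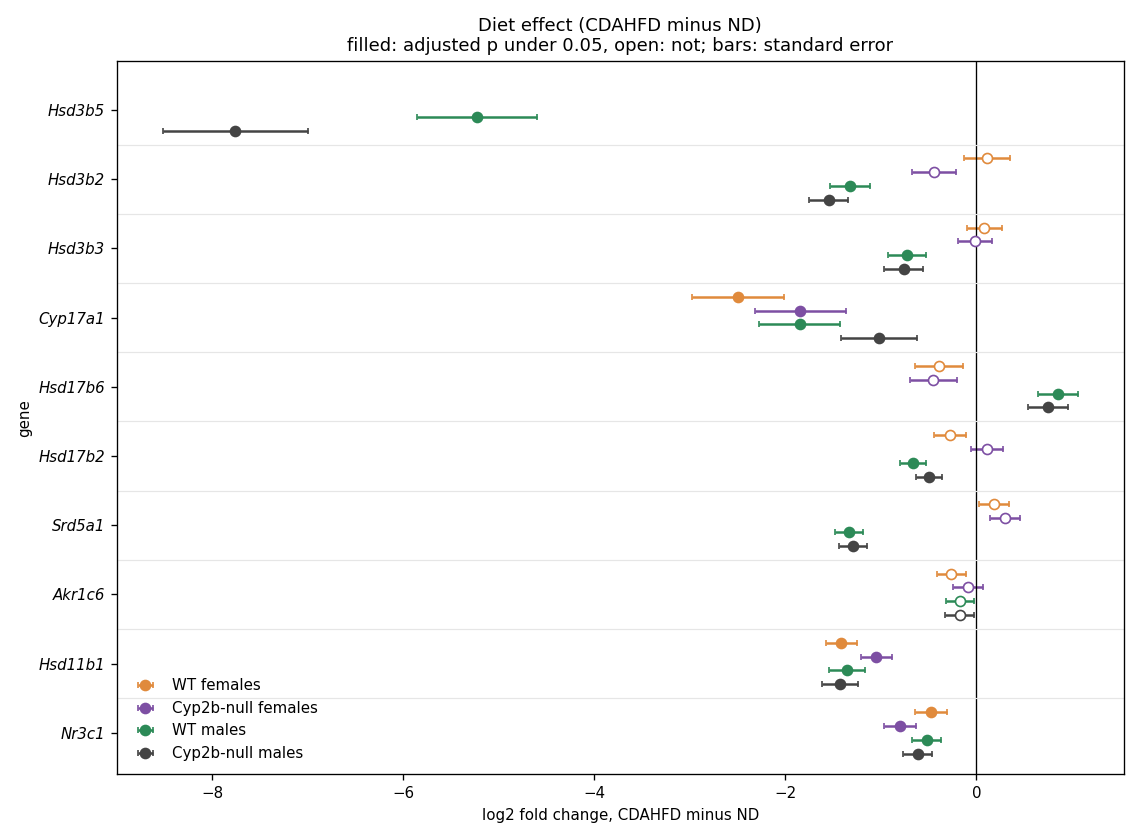
Log2 fold change of each gene on CDAHFD against ND, with its standard error, for the 4 combinations of sex and genotype. Filled points passed an adjusted p of 0.05 and open points did not, and Hsd3b5 is not drawn for females because it fell below the count filter. Both male rows of Hsd3b5 lie far left of all others at -5.23 and -7.76, Hsd17b6 is right of zero in males, and all 4 Akr1c6 points are open.

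The diet effect itself was compared between the sexes in a joint fit of all 32 libraries (14020 genes), as the male minus the female change. In WT mice 2 members were called, against 0.97% of all genes: Srd5a1 at -1.50 (SE 0.22, adjusted p = 9.68e-05) and Hsd3b2 at -1.41 (SE 0.33, adjusted p = 0.0271). In Cyp2b-null mice 2 were called, against 3.4% of all genes: Srd5a1 at -1.57 (SE 0.22, adjusted p = 4.63e-05) and Hsd17b6 at 1.22 (SE 0.35, adjusted p = 0.045). For Hsd3b5 the difference was -4.54 (SE 2.44, adjusted p = 0.558) in WT and -6.76 (SE 2.24, adjusted p = 0.0852) in Cyp2b-null mice, neither of which was called. In Cyp2b-null mice the difference was called by DESeq2 (log2 -6.54, adjusted p = 0.000495), with only the groups compared in edgeR (-6.77, 0.00637) and without the low-count filter (5.72e-12). In WT mice it was called without the filter (0.0002). The female side of that contrast rests on 14 counts in WT and 22 in Cyp2b-null mice. Without CDAHFD-fed WT male replicate 1 the WT contrast for Hsd3b5 was -7.07 (adjusted p = 0.0106). Across single omissions the Hsd3b5 contrast ran from -7.07 to -3.49 in WT and from -7.75 to -5.66 in Cyp2b-null mice. Hsd17b6 in WT mice (log2 1.27, SE 0.35, adjusted p = 0.079) and Hsd3b2 in Cyp2b-null mice (log2 -1.07, SE 0.32, adjusted p = 0.0531) were not called in edgeR with all groups. DESeq2 called both (adjusted p = 0.0323 and 0.0288), as did edgeR without the low-count filter (3.46e-06 and 0.00287). Hsd17b6 in WT mice was also called without CDAHFD-fed WT female replicate 1 (0.0336) or male replicate 1 (0.0343). Hsd3b2 in Cyp2b-null mice was also called with only the groups compared (0.0407), without CDAHFD-fed Cyp2b-null female replicate 3 (0.0325) or male replicate 4 (0.0351), and without both, the libraries absent from the heat maps (0.0208). No difference between the sexes was called for Cyp17a1 (0.68 in WT and 0.85 in Cyp2b-null mice), Hsd11b1 (0.08 and -0.36), Nr3c1 (-0.03 and 0.21), Hsd17b2 (-0.36 and -0.58), Hsd3b3 (-0.78 and -0.73, with adjusted p of 0.0168 and 0.0252 without the low-count filter) or Akr1c6 (0.11 and -0.07). Srd5a1 was the member whose sex difference in diet effect was called in both genotypes and without each library in turn. The Hsd3b2 call was lost without any 1 of 8 libraries, with adjusted p from 0.0563 to 0.0799, and with only the groups compared (0.0578), and the Hsd17b6 call without any 1 of 12, with adjusted p from 0.0514 to 0.11. With the replicate number as a block the Hsd17b6 call was lost (0.0536) and Hsd3b2 in Cyp2b-null mice was called (0.049).

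**Figure D3:**
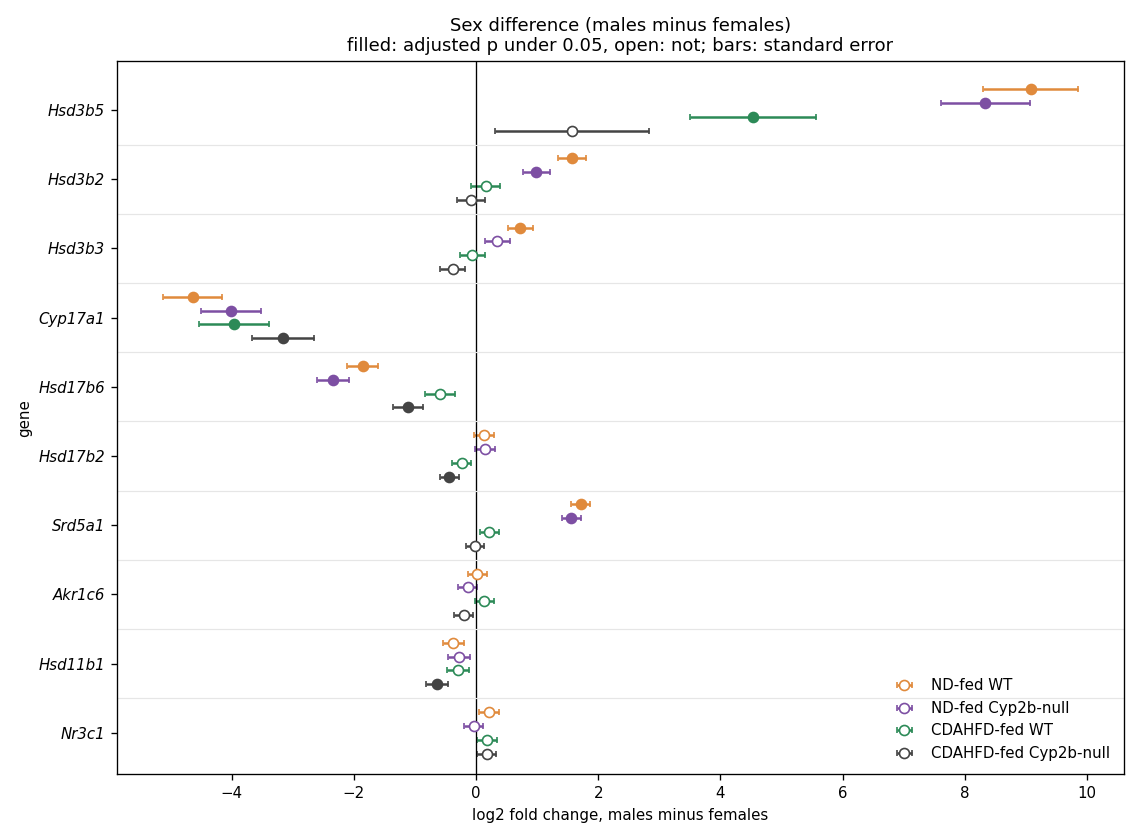
Log2 fold change of each gene in males against females, with its standard error, in the 4 combinations of diet and genotype. Filled points passed an adjusted p of 0.05 and open points did not. On ND the points of Hsd3b5, Hsd3b2 and Srd5a1 lie right of zero, on CDAHFD those of Hsd3b2 and Srd5a1 lie near zero, and the points of Cyp17a1 stay below -3 throughout.

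Deleting the Cyp2b genes changed no member detectably. No member was called in edgeR between genotypes on ND in females (0.0756% of genes called) or males (0.0371%), on CDAHFD in females (0.0227%) or males (0.0297%), or in the interaction of diet and genotype in females (0%) or males (0.00743%). At an unadjusted p under 0.05 there was 1 member on ND in females (Hsd3b2, log2 0.76, adjusted p = 0.572), where 5.75% of genes reached it, and none in males (8.26% of genes). On CDAHFD there was 1 in males (Hsd3b5, -2.66, adjusted p = 1; 3.62% of genes) and none in females (5.83%). The interaction gave 1 in males (Hsd3b5, -2.53, adjusted p = 0.699; 6.07%) and none in females (6.28%). DESeq2 called none in any of these 6 comparisons. In edgeR without the low-count filter, Cyp17a1 was called on ND in females (adjusted p = 0.00102), and Hsd3b5 on CDAHFD in males (7.39e-23) and in the male interaction (6.06e-15). The size of these p-values cannot be read as a measure of the spread between libraries. Both Hsd3b5 estimates rested on CDAHFD-fed WT male replicate 1. Without it they were -0.14 on CDAHFD and -0.02 for the interaction with the filter, and -0.13 and -0.01 without the filter (an alternative added after the data were seen), each with an adjusted p of 1. The remaining WT libraries averaged 1.29 CPM of Hsd3b5. The Cyp2b-null libraries averaged 1.44 CPM with replicate 4 included (4.10 CPM against 0.483 to 0.666 in the others). Without Cyp2b-null male replicate 4 instead, the estimates were -3.64 on CDAHFD and -3.52 for the interaction, and neither was called. The sex difference of the genotype effect on CDAHFD, tested in edgeR over all 32 libraries, was called for no member (0.00713% of genes), and none reached an unadjusted p under 0.05, as 3.13% of genes did. For Cyp17a1 the estimates were -0.78 (SE 0.45, adjusted p = 0.902) on ND in females and 0.67 (SE 0.44, adjusted p = 1) on CDAHFD in males.

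Per kilobase of protein-coding exon, Akr1c6 led in all 8 groups, for example with 621 ± 71.2 CPM per kilobase in ND-fed WT males and 501 ± 97.5 in CDAHFD-fed WT females. In ND-fed WT males the order then ran through Hsd11b1 (289.9 ± 79.9), Hsd3b5 (179 ± 36.6), Hsd17b2 (149 ± 22.005), Hsd3b3 (102 ± 19.1), Hsd17b6 (61.1 ± 9.60), Srd5a1 (41.8 ± 5.07), Nr3c1 (15.6 ± 3.73), Hsd3b2 (9.73 ± 0.528) and Cyp17a1 (3.27 ± 2.15). Neighbors Hsd3b5 and Hsd17b2 did not differ beyond their spread. In CDAHFD-fed WT males Hsd11b1 (113 ± 25.5), Hsd17b6 (111 ± 43.3) and Hsd17b2 (94.3 ± 15.7) did not differ beyond their spread, and Hsd3b5 had dropped to 5.001 ± 8.34. In ND-fed WT females Cyp17a1 (78.9 ± 45.9) stood level with Hsd3b3 (61.6 ± 10.4), and Hsd3b5 came last at 0.364 ± 0.276 CPM per kilobase.

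The rest of the pathway was read from a list of 48 steroid genes in the tables, of which 32 were tested. With CDAHFD 14 were called lower and 3 higher in WT females, 12 lower and 4 higher in Cyp2b-null females, 15 lower and 4 higher in WT males, and 17 lower and 4 higher in Cyp2b-null males. Of all genes tested, 10.2% were called lower and 13.9% higher in WT females, 13.9% and 16.9% in Cyp2b-null females, 15% and 18% in WT males, and 17.1% and 20.3% in Cyp2b-null males. The higher counts of the list were below these shares in all 4 comparisons. The median log2 change over the list was -0.43, -0.35, -0.45 and -0.55 in that order, beside 0.00, 0.03, -0.02 and -0.01 over all genes tested. Among male-biased hydroxylases, Cyp2d9, a testosterone 16α-hydroxylase, had 2043, 1550.2, 1778 and 1367 CPM in ND-fed WT males and 555, 259, 263 and 242 CPM in CDAHFD-fed ones. Its groups did not overlap, and the log2 change was -2.35 (SE 0.22, adjusted p = 8.46e-08), with 0.42 (SE 0.33, adjusted p = 0.392) in WT females. The difference between those changes was called (log2 -2.75, SE 0.42, adjusted p = 0.000201).

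Sult1e1, the estrogen sulfotransferase that inactivates estrogens, moved the other way in males. It had 1 count in all 4 ND-fed WT males together and 96, 34, 14 and 1 counts in the 4 CDAHFD-fed ones (145 in all, so that replicate 1 holds most and replicate 4 hardly any), a ratio of scaled levels of 139 (counting interval 24.6 to 5550). In Cyp2b-null males it was at 0 counts on ND and 4.99, 23.5, 6.75 and 7.996 CPM on CDAHFD, at least 18.7-fold higher than the level of 3 counts per library. In ND-fed WT females it was already present, with 0.596, 6.89, 8.75 and 5.86 CPM, and the female changes were not called (log2 2.26, SE 0.91, adjusted p = 0.0789 in WT mice). The WT female change was called with scaling by library size alone (adjusted p = 0.0321), without the low-count filter (9.18e-18), with only the groups compared (0.0361) and without CDAHFD-fed replicate 3 (0.0254). Cyp1b1, an estrogen hydroxylase, rose from 1.04 ± 0.750 to 2.95 ± 0.764 CPM in WT females (log2 1.75, SE 0.51, adjusted p = 0.0153), a call lost without any 1 of 3 libraries (adjusted p from 0.0572 to 0.0721), and 61 counts in CDAHFD-fed against 5 in ND-fed WT males gave a ratio of 11.7 (counting interval 4.76 to 37.4). Hsd17b7, which also serves cholesterol synthesis, fell in WT females from 108 ± 15.5 to 39.3 ± 10.995 CPM (log2 -1.43, SE 0.26, adjusted p = 0.000285). Akr1d1, the 5β-reductase of steroid and bile acid metabolism, fell there from 364 ± 83.8 to 145 ± 34.7 CPM (log2 -1.30, SE 0.21, adjusted p = 8.94e-05). A further 2 genes were chosen after their values were seen. Cyp7b1, the oxysterol hydroxylase, fell in WT males from 206 ± 55.3 to 55.1 ± 33.7 CPM (log2 -1.90, SE 0.32, adjusted p = 9.43e-05), and Serpina6, the corticosteroid-binding globulin, fell in WT females from 714 ± 135 to 324 ± 139 CPM (log2 -1.12, SE 0.28, adjusted p = 0.00504). In no genotype comparison was a gene of this list called in edgeR, and 2 to 4 of the 32 reached an unadjusted p under 0.05 in each of the 4 effects, beside 3.62% to 8.26% of all genes.

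The 20 listed targets of the glucocorticoid receptor (19 tested) had median changes of opposite sign in the sexes. In WT females 6 were called lower and 3 higher on CDAHFD, in Cyp2b-null females 8 lower and 2 higher, in WT males 4 lower and 9 higher, and in Cyp2b-null males 1 lower and 9 higher. Against the shares of all genes given above for these comparisons, the 3 and 2 higher in females and the 4 lower in WT males lay near the background. Without a low-count filter 16 targets were called in Cyp2b-null females in place of 10, beside 16.7% of all genes in place of 30.8%. Across single omissions the lowest count of targets called was 7 in Cyp2b-null females and 6 in WT females (9 with all libraries). The median log2 change was -0.41 and -0.67 in WT and Cyp2b-null females and 0.73 and 0.92 in WT and Cyp2b-null males. The sex difference of the diet effect was called for 5 targets in Cyp2b-null mice (3.4% of all genes), all with the more positive change in males, and for none in WT mice (0.97%), where 8 reached an unadjusted p under 0.05 in edgeR (10.3% of all genes). On ND 9 of the 19 were lower in males than females in each genotype and none was higher, where 17.8% of all genes differed in either direction in WT and 13.3% in Cyp2b-null mice. Lcn2, lipocalin, which inflammation also induces, rose from 3.27 ± 1.61 to 408 ± 408 CPM in WT females (log2 7.02, SE 0.61, adjusted p = 5.66e-08) and from 1.19 ± 0.277 to 181 ± 31.7 CPM in WT males (log2 7.26, SE 0.29, adjusted p = 7.44e-13). Without CDAHFD-fed WT female replicate 4 the female change was 6.03. Mt2, a metallothionein, changed by 2.09 (SE 0.71, adjusted p = 0.0365) in WT females and 4.22 (SE 0.55, adjusted p = 4.52e-06) in WT males. The female call was lost by DESeq2 (adjusted p = 0.0743) and without any 1 of 4 libraries, with 0.88 (adjusted p = 0.379) without CDAHFD-fed replicate 4, and the male value was 4.83 without ND-fed replicate 2. The cell cycle inhibitor Cdkn1a changed by 2.50 (SE 0.63, adjusted p = 0.00586) and 3.32 (SE 0.41, adjusted p = 2.16e-06), the former 4.64 without ND-fed WT female replicate 2. A further 2 targets were chosen after their values were seen. Tsc22d3, an anti-inflammatory leucine zipper protein, fell from 161 ± 79.1 to 58.8 ± 29.3 CPM in WT females (log2 -1.42, SE 0.35, adjusted p = 0.00534). Fkbp5, a co-chaperone of the receptor, rose in WT males from 4.70 ± 1.33 to 8.23 ± 2.34 CPM (log2 0.81, SE 0.30, adjusted p = 0.0454) and was not called in WT females (log2 -0.41, SE 0.32, adjusted p = 0.404). The male call was lost without any 1 of 5 libraries (adjusted p from 0.0617 to 0.138) and without the library that the heat maps omit (0.0527). As background, inflammation induces several listed genes as well. None of the 19 was called in a genotype comparison in edgeR. At an unadjusted p under 0.05 there were 5 on ND (5.75% of all genes) and 2 on CDAHFD (5.83%) in females, and 7 on ND (8.26%) and 1 on CDAHFD (3.62%) in males.

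**Figure D4:**
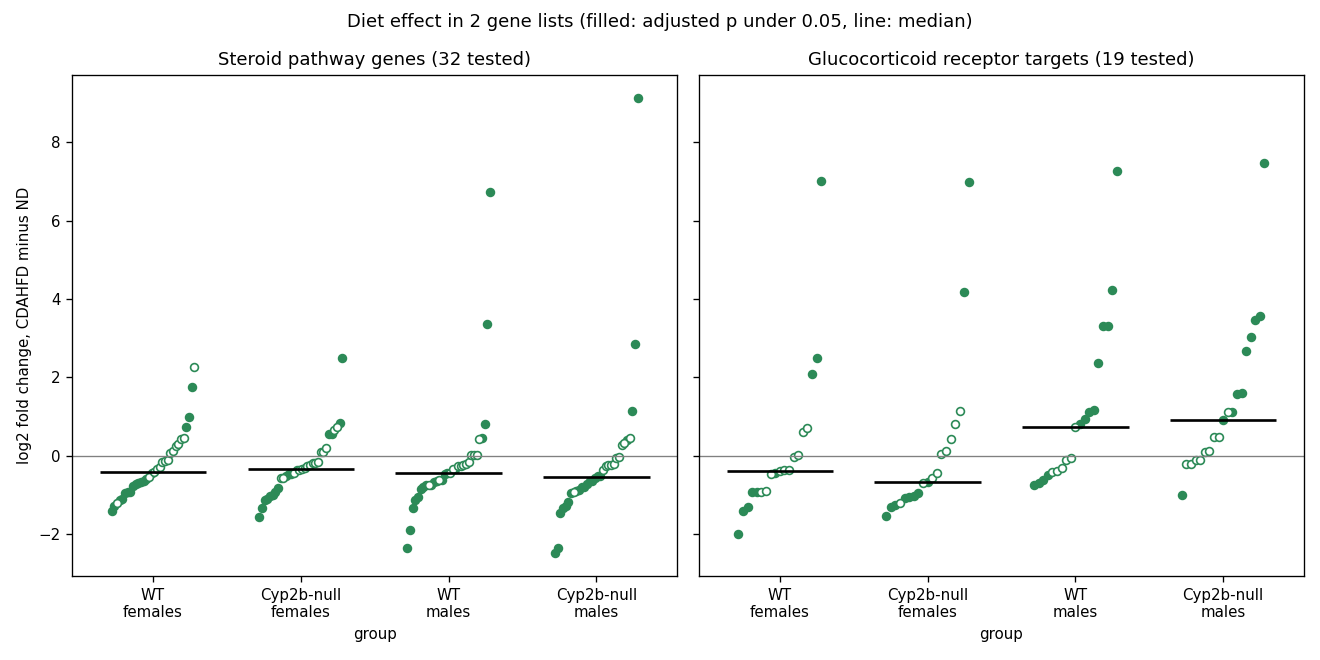
Log2 fold change on CDAHFD against ND of 32 steroid pathway genes (left) and 19 glucocorticoid receptor targets (right), sorted within each combination of sex and genotype. Filled points passed an adjusted p of 0.05, and the black line is the median. The pathway medians lie below zero in all 4 columns (-0.43 to -0.35 in females and -0.45 to -0.55 in males), and the target medians lie below zero in females and above it in males.

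Markers of cell types moved with diet beside these changes. The summed level of 7 hepatocyte markers was 154346 ± 26686 CPM on ND and 88385 ± 11378 CPM on CDAHFD in WT females, and 125535 ± 7639 and 78474 ± 19807 CPM in WT males. The 7 macrophage markers summed to 523 ± 122 and 986 ± 93.7 CPM in WT females and 242 ± 75.2 and 1047 ± 288 CPM in WT males. Lyz2, the highest of them by its mean over all libraries, had 82.6 and 447 CPM in WT females. In WT males it had 20.8 and 428 CPM. Lyz2 thus made up most of the rise of the sum in WT females. The 7 stellate cell markers (Dcn the highest by its mean over all libraries) summed to 229 ± 40.4 and 645 ± 90.9 CPM in WT females and 128 ± 28.7 and 559 ± 138 CPM in WT males. The hepatocyte sum was thus lower, and the macrophage and stellate cell sums were higher, on CDAHFD. Alb made up most of the hepatocyte sum, with 128030 CPM on ND and 74110 CPM on CDAHFD in WT females. In WT males Alb had 98706 and 62882 CPM. The 5 cholangiocyte markers (led by Spp1) summed to 46.01 ± 10.8 and 161 ± 39.99 CPM in WT females and 28.98 ± 4.03 and 157 ± 70.4 CPM in WT males. On CDAHFD, Spp1 made up most of each sum, at 98.7 to 191 CPM in WT females and 84.8 to 218 CPM in WT males. The 6 endothelial markers summed to 239.96 and 179 CPM, and 187 and 168 CPM. Lymphocyte markers summed to at most 10.8 CPM, neutrophil markers to 10.3 CPM and adipocyte markers to 14.9 CPM as group means, the last in ND-fed Cyp2b-null males. Of the 57 markers, 39 were tested in females and 37 in males, and 14 rose and 9 fell in WT females, 17 and 9 in Cyp2b-null females, 16 and 10 in WT males, and 19 and 7 in Cyp2b-null males. Of all genes, 13.9% rose and 10.2% fell in WT females, 16.9% and 13.9% in Cyp2b-null females, 18% and 15% in WT males, and 20.3% and 17.1% in Cyp2b-null males. The part of these shifts in the members' changes was not tested.

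The largest single marker changes were Acta2 (4.16), S100a9 (3.45) and Col1a1 (3.35) in WT females and Col1a1 (4.73), Lyz2 (4.34) and Cd68 (3.70) in WT males, on the log2 scale, which mark stellate cells or smooth muscle (Acta2, Col1a1), neutrophils (S100a9) and macrophages (Lyz2, Cd68). Without 1 ND-fed WT female library the female values were 5.01 for Acta2 (replicate 4), 4.59 for S100a9 (replicate 1) and 4.11 for Col1a1 (replicate 3). In the CDAHFD-fed WT male library with the highest Hsd3b5 (replicate 1) the hepatocyte markers summed to 102407 CPM and the macrophage markers to 642 CPM, against 57176 to 85732 and 1065 to 1309 CPM in the other three. Steroid-making glands left almost no trace. Of 12 adrenal and gonadal markers, 6 to 9 were at 0 counts in each library. Cyp11a1 and Cyp11b1, which define steroid-making tissue, had at most 1 count in a library, and Fdx1, which hepatocytes also express, made up most of the sum, which was 57.2 to 134 CPM per library.

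Patterns across the 8 groups were compared for the 3 members that varied most, by the root mean square difference of centered log2 group means over 14010 genes. Nearest to Hsd3b5 were Elovl3, a fatty acid elongase (0.82), Mup14, a major urinary protein (0.92), and Pitx3, a transcription factor (0.96). Elovl3 had 326, 575, 876 and 258 CPM in ND-fed WT males and 29.96, 12.5, 15.5 and 8.34 CPM in CDAHFD-fed ones, with replicate 1 again the highest. Mup14 had 842, 53.7, 83.2 and 44.2 CPM in those CDAHFD-fed WT males, replicate 1 far above the rest, but it belongs to a family of near-identical copies and its counts are uncertain. Pitx3 overlaps Elovl3 by 414 bases on chromosome 19, so that reads may be shared, and it had 0 or 1 count in every female library. Nearest to Cyp17a1 were Acot3, an acyl-CoA thioesterase (0.32), the noncoding Gm41857 (0.41), which overlaps Cyp17a1 itself by 4405 bases and whose reads cannot be told apart from it because the library kit keeps no strand, and Eci3, an enoyl-CoA isomerase (0.60). Acot3 went from 174 ± 28.6 to 36.9 ± 20.9 CPM in WT females and from 18.6 ± 19.6 to 7.57 ± 9.40 CPM in WT males. Eci3 had only 0 to 2 counts in each male library. Nearest to Hsd17b6 were the low-level entries LOC105245767 (0.18) and Gm29571 (0.20) and the ribonuclease gene Ang (0.22). In ND-fed WT males LOC105245767 had 13, 1, 15 and 0 counts and Gm29571 10, 0, 9 and 2, so the likeness of both is uncertain. With CDAHFD in WT males mean CPM went from 1.15 to 1.05 for LOC105245767 and from 0.878 to 1.07 for Gm29571, beside 96.3 to 174 for Hsd17b6. Ang had 315 ± 49.6 CPM in ND-fed WT females and 102 ± 17.7 CPM in ND-fed WT males. These likenesses are over 8 group means and describe these libraries.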

How the data were processed

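The study sequenced liver RNA from 32 mice, 4 per group. Per the labels and the study's methods, the authors used FastQC, Trimmomatic, GSNAP against GRCm38.p6, and Subread to count reads per gene, and they deposited raw counts per gene in 1 table for females and 1 for males. The library kit (NEBNext Ultra) keeps no strand. Aligner and counter settings, including the handling of reads that match several places, are not given in the sources used here.

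Counts were analyzed with edgeR 4.0.16 in R 4.3.3. Genes passed filterByExpr with a minimum count of 10 and a minimum total of 15, libraries were scaled by TMM, and a quasi-likelihood fit over the 4 groups of a sex gave diet, genotype and interaction contrasts. A fit over all 8 groups gave sex contrasts. Genes were called at a Benjamini-Hochberg adjusted p under 0.05, and p-values of the filtered fits measure the spread between these libraries. With low-count genes kept in, edgeR gave far smaller values for several members at nearly unchanged estimates. The diet effect on Cyp17a1 in WT females went from 0.000526 (log2 -2.50) to 3.16e-45 (log2 -2.53). Hsd3b5 between genotypes in CDAHFD-fed males reached 7.39e-23, although that estimate rested on 1 library. Calls made only in that setting were therefore not taken as evidence of a change. The SE was derived from the F statistic. All 16 libraries per sex entered. The study's heat maps omit 2 for a reason not given in the sources used here (replicate 3 of the CDAHFD-fed null females and replicate 4 of the corresponding males), and results without them were an alternative. DESeq2 1.42.0, other scalings and filters, only the groups compared, a replicate block and single omissions were also run. The fitting code was tested on simulated data. All 10 members, the 3 listed genes with the largest called change in WT mice of each sex, and the 3 nearest patterns of the 3 most variable members were named by rule. Members and gene lists were chosen with earlier results of these data known. Intervals cover counting error only. Promoters and positions came from RefSeq (GRCm38.p6). Exon lengths for levels per kilobase came from the protein-coding transcripts of GENCODE vM21. Pairs of libraries with the same replicate number did not deviate together. The fit that left out CDAHFD-fed WT male replicate 1 without a low-count filter was added after the data were seen.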

Additional observations from a re-analysis of the deposited data

Results flagged for a closer look

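Of 80 sets of 4 libraries (10 genes in 8 groups), 9 held a library whose gap to its nearest neighbor was past Dixon's 95% critical value for 4 samples. Chance gives about 1 in 20 such sets. Among CDAHFD-fed WT males, replicate 1 was extreme for Hsd3b5 (27.1 CPM against 1.04 to 1.77) and Hsd3b2 (23.5 CPM against 10.99 to 12.1). In CDAHFD-fed Cyp2b-null males, replicate 4 was extreme for Hsd3b5 (4.10 CPM against 0.483 to 0.666) and, on the low side, for Srd5a1 (29.9 CPM against 45.7 to 48.3). The remaining 5 were Hsd17b2 in CDAHFD-fed WT females (replicate 3, 189 CPM against 127 to 135) and ND-fed WT males (replicate 1, 241 CPM against 179.6 to 185), Srd5a1 in ND-fed WT females (replicate 4, 41.7 CPM against 30.0 to 31.0) and ND-fed Cyp2b-null males (replicate 1, 85.7 CPM against 111 to 114), and Cyp17a1 in ND-fed Cyp2b-null males (replicate 4, 11.96 CPM against 5.002 to 6.15).

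The diet effect differed between males and females by a test of the difference itself (edgeR, adjusted over all genes) for Srd5a1, by -1.50 in WT and -1.57 in Cyp2b-null mice on the log2 scale, for Hsd3b2 in WT mice (-1.41) and for Hsd17b6 in Cyp2b-null mice (1.22). The Hsd3b2 and Hsd17b6 calls were each lost in several fits with a single library left out. The other genotype had like estimates that were not called (Hsd3b2 -1.07 in Cyp2b-null and Hsd17b6 1.27 in WT mice).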

How the results depend on the processing

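Over 45 called changes of members, 340 of 359 values under alternatives other than single omissions stayed called, and none reversed. With single libraries left out, 352 values stayed called, 40 did not, and none reversed. Scaling by library size alone moved the median of all genes on CDAHFD by 0.32 in WT and 0.25 in Cyp2b-null females and by 0.39 and 0.37 in males (log2), and then called 6 members in WT males and 5 in Cyp2b-null males (9 each by TMM), where all genes called rose to 42.3% and 44.4%: Hsd3b3, Hsd17b2 and Nr3c1 were lost in both genotypes, Cyp17a1 in Cyp2b-null males, and Nr3c1 in WT females, while Srd5a1 was gained in females of both genotypes. Without a low-count filter 1 member was called in the genotype effect on ND in females (Cyp17a1, log2 -0.77), 1 in that on CDAHFD in males (Hsd3b5, -2.66) and 1 in the male interaction (Hsd3b5, -2.53; both Hsd3b5 calls were lost without CDAHFD-fed WT male replicate 1, at -0.13 and -0.01), with 122, 51 and 95 genes called in all against 10, 4 and 1. The sex difference of the diet effect then had 5 members called in WT and 5 in Cyp2b-null mice against 2 each, beside 1.7% and 3.34% of all genes. DESeq2 called 4 in Cyp2b-null mice (5.31% of all genes). With only the groups compared in the fit, 1 was called in WT (0.589% of all genes) and 4 in Cyp2b-null mice (3.65%). In the sex difference on CDAHFD in WT mice that fit called 1 (11.4%) against 2, since Hsd3b5 was then below the count filter. The interactions were fitted on only the groups compared, so that setting gave them no further value.

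Across single omissions members called ranged from 2 to 4 in the sex difference on CDAHFD in Cyp2b-null mice, 1 to 3 in WT mice, and from 1 to 4 in the sex difference of the diet effect in WT and 1 to 2 in Cyp2b-null mice. Without the 2 libraries that the heat maps omit, the Cyp17a1 call in Cyp2b-null males was lost (adjusted p = 0.0837), as were those of Hsd17b2 (0.397) and Hsd17b6 (0.0634) in the Cyp2b-null sex comparisons. Over 48 same-number pairs the correlation of deviations from group means had a median of 0.0169 (-0.159 to 0.269), so the numbers were not used as pairs. A fit with the replicate block called 2 members in WT females against 3, 3 in Cyp2b-null females, 9 in males of each genotype (23.4%, 30.1%, 32.5% and 36.6% of all genes in that fit) and 0 in each genotype contrast. In the sexes compared it called 6 members in ND-fed WT and 5 in ND-fed Cyp2b-null mice (17.8% and 13.1% of all genes). On CDAHFD it called 2 in WT and 3 in Cyp2b-null mice (11% and 18.3%). For the diet effect it called 2 and 2 (1.01% and 3.23%), where in Cyp2b-null mice Hsd17b6 was lost (adjusted p = 0.0536) and Hsd3b2 gained (0.049). At the shallowest library 3 counts equal 1.15 CPM, which limits Hsd3b5 in females.

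Counts of all genes called in the diet comparisons and in the sex difference in ND-fed Cyp2b-null mice stayed within 1.5 times, and other counts did not. Without a low-count filter they were 69 for genotype on CDAHFD in females (3 with the filter), 170 on ND in males (5), 46 for the female interaction (0), 49 for the sex difference of the genotype effect (1, and 0 without any 1 of 10 libraries), and 469 and 923 for the sex difference of the diet effect in WT and Cyp2b-null mice (136 and 477). DESeq2 gave 23, 5 and 61 for genotype on ND in females, on CDAHFD in females and on ND in males, 2 and 8 for the interactions, and 216 for the sex difference of the diet effect in WT mice. With only the groups compared, the sex difference had 1534 genes in ND-fed WT mice (2496) and 1533 in CDAHFD-fed Cyp2b-null mice (2539), and 79 for the diet effect in WT mice. Without the heat-map libraries the sex difference in CDAHFD-fed Cyp2b-null mice had 867 genes and that of the diet effect 245. With single libraries left out, the sex difference fell to 1579 genes in ND-fed WT mice (without male replicate 2), to 698, 798 and 901 in CDAHFD-fed WT mice (1546; without male replicate 2 and female replicates 2 and 4), and to 1275 and 1671 in CDAHFD-fed Cyp2b-null mice (without female replicate 3 and male replicate 4). That of the diet effect ran from 84 (without ND-fed female replicate 3) to 261 (without CDAHFD-fed male replicate 1) in WT mice (90, 90 and 87 without ND-fed male replicate 2 and CDAHFD-fed male replicates 2 and 4) and from 238 (without CDAHFD-fed male replicate 3) to 578 in Cyp2b-null mice (298 and 311 without ND-fed male replicates 2 and 4). Genotype on ND in males ran from 2 (without Cyp2b-null replicate 2) to 29 (without WT replicate 2) and on CDAHFD from 1 to 3, and the interactions from 0 to 1 in females and 0 to 3 in males. Among other genes, the changes in WT females of Cyp2d9 (-0.0125 to 0.64) and Fkbp5 (-0.66 to 0.0153), not called, changed sign with 1 library left out.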
